A study of Mus musculus with 48 samples.

Results

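The Ly6 surface antigen genes described here are the 6 genes Ly6c1, Ly6c2, Ly6a, Ly6e, Ly6g and Ly6i, chosen by name from the 34643 genes of the deposited expression table. The sum of Ly6c1 and Ly6c2 was followed as well, because these 2 genes share sequence. They were measured in 24 clones of mouse bone marrow ER-Hoxb8 cells, that is, myeloid progenitors kept growing by an oestrogen-dependent form of the transcription factor Hoxb8. Each clone gave a library of granulocyte-monocyte progenitors (GMP, here progenitors, n = 24) and a library of monocytic cells (here monocytes, n = 24). The labels say that the cells were grown with serum and stem cell factor (SCF), and how the monocytes were obtained is not given in the labels used. Both states of a clone carry the ER-Hoxb8 construct, so the cells are an immortalised model and not primary monocytes. The clones are numbered 1 to 13, 15 to 24 and 26. Replicates are clones, and each clone has 1 library in each state.

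Ly6 proteins are small, cysteine-rich proteins of the three-finger fold that sit on the cell surface through a glycosylphosphatidylinositol (GPI) lipid anchor. In mouse myeloid cells they are used mainly as markers. The antigen Ly6C, encoded by Ly6c1 and Ly6c2, marks classical monocytes, and Ly6G, encoded by Ly6g, marks neutrophils. Ly6a encodes Sca-1, a marker of mouse stem cells that interferons induce, and Ly6e encodes a broadly expressed surface protein that is also induced by interferon. Ly6i encodes a related antigen of myeloid cells.

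All 6 genes lie in 1 cluster of 317 kb on chromosome 15 of the mouse build mm10 (GRCm38), from Ly6e to the related gene Ly6f. In the GENCODE M21 annotation Ly6e is at chr15:74955051-74959905 on the plus strand. Ly6i follows at chr15:74979534-74983430, Ly6a at chr15:74994877-74998031, Ly6c1 at chr15:75044018-75048830 and Ly6c2 at chr15:75108158-75111970, these 4 on the minus strand. Ly6g is at chr15:75155240-75159126 on the plus strand.

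The coding sequences of Ly6c1 and Ly6c2 are shown first, because their likeness decides how far the 2 levels can be read apart. Both have 393 coding bases, of which 9 differ (97.7% identity), and the longest stretch with no difference has 188 bases. The first 150 coding bases hold 6 of the 9 differences, which are in capitals.
Ly6c1: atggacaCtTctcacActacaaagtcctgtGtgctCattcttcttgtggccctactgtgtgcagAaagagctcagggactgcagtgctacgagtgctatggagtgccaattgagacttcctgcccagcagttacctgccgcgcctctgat
Ly6c2: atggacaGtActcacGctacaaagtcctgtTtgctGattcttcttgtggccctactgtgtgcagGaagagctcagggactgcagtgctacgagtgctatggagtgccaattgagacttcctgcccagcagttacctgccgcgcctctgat

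Over whole transcripts, 33.0% of the 31-base words of Ly6c1 also occur in Ly6c2, and 46.8% occur in some other gene of a group made of the 6 members, Ly6f and the neighbouring pseudogenes I830127L07Rik and Gm5960. For Ly6a the share found elsewhere in this group was 31.8%, mostly in Ly6c1 (21.9%). It was 23.2% for Ly6c2, 17.5% for Ly6i and 6.26% for Ly6g. Ly6e shared none with any other member, and its coding sequence was 52.7% identical to that of Ly6a. By this measure the level of Ly6c1 is the least certain of the 6, and Ly6e and Ly6g share little or no sequence with the rest of the group. Genes outside the group were not compared.

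The promoters of Ly6c1, Ly6c2 and Ly6g are shown because these genes move between the states and carry the labels of monocytes and neutrophils. Each is the 250 bases before the most upstream of the 2 RefSeq start sites listed for the gene (GRCm38.p6), printed on the strand of the gene. The windows are chr15:75048838-75049087 (minus strand), chr15:75111972-75112221 (minus strand) and chr15:75155011-75155260 (plus strand). The Ly6g window runs past the GENCODE start of Ly6g at chr15:75155240, so its last bases lie inside the annotated gene. Capitals mark GAGGAAG, a form of the site bound by PU.1, the main transcription factor of myeloid cells.
Ly6c1: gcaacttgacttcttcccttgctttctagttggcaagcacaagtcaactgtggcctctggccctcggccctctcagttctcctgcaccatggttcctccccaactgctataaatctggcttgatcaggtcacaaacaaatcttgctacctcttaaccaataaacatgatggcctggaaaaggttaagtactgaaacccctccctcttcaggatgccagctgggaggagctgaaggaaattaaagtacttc
Ly6c2: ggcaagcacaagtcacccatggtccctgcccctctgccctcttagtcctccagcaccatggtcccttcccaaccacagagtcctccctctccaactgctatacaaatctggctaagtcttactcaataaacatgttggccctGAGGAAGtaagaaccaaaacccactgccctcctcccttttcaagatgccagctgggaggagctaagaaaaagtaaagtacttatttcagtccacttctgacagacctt
Ly6g: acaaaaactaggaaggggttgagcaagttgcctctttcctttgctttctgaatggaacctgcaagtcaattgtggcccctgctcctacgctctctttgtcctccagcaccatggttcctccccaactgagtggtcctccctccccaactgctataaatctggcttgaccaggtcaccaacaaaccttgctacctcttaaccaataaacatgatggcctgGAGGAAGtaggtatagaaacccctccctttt

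GAGGAAG occurred once in the Ly6c2 window, beginning at position -108 from the start site, and once in the Ly6g window at position -31, both on the strand of the gene. It was not in the Ly6c1 window. Of the 32851 RefSeq windows of this length, 10.6% held it on either strand. The C/EBP form TTGCNNAA was in the Ly6g window at position -232 on the opposite strand, and 9.56% of all windows held it. The interferon-activated form TTCNNNGAA (7.02% of windows) and the core of the interferon-stimulated response element, GAAA repeated after 2 bases (2.98% of windows), were in none of the 3. Both strands were searched, and no motif overlapped another. Windows for Ly6a, Ly6e and Ly6i were not used here.

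Values are in TPM, a transcript level scaled for transcript length and for the library's total, so levels can be compared between genes. TPM gives no read counts, so the depth behind each value is unknown. The libraries summed to between 982723 and 999054 TPM. None of 12 genes that every cell uses, such as Actb and Gapdh, was at 0 in any library, whereas the progenitor library of clone 21 stood apart, with 209 of 5042 commonly expressed genes listed at 0. Clones 1 to 13 (n = 13) and 15 to 26 (n = 11) parted in the expression data, and the labels name no batch. The 14 neutrophil genes checked summed to between 425 and 189421 TPM in monocytes. This sum exceeded that of the 14 classical monocyte genes in 20 of the 24 monocyte libraries. Both sums came mostly from a few genes, so this comparison does not speak for each list as a whole. S100a8 and S100a9 of the neutrophil list averaged 21091 and 28870 TPM in monocytes. Chil3 and Lyz2 of the classical monocyte list averaged 9310 and 9113 TPM. The 13 stem and early progenitor genes summed to between 282 and 1567 TPM in progenitors and between 29.3 and 375 TPM in monocytes.

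Ly6c2 was the most abundant member in monocytes and varied more among progenitors than any other member. Its monocyte level ran from 234 TPM (clone 26) through a median of 1063 TPM to 3746 TPM (clone 17). In progenitors it ran from 0.209 TPM (clone 6) through a median of 6.57 TPM to 975 TPM (clone 21). Progenitor clones 20, 1, 15 and 16 were also high, with 468, 198, 194 and 129 TPM. The groups therefore overlapped, although 13 monocyte libraries were above all progenitors.

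Ly6c2 was higher in the monocytes of 23 of 24 clones. The difference on the log2(TPM + 1) scale was 6.07 (SE 0.64, adjusted p = 2.67e-09, limma with clone as a block). This is the scale of every log2 difference given for the members. The exception was clone 21, with 975 TPM as a progenitor and 443 TPM as a monocyte. Its progenitor library is the one with 209 of 5042 commonly expressed genes listed at 0. Clone 20 was nearly level, with 468 and 487 TPM. The widest gap was in clone 17, which had 1.14 TPM as a progenitor and 3746 TPM as a monocyte.

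Ly6c1 followed the same direction at a far lower level. It was listed at 0 in 11 of 24 progenitor libraries, with a median of 0.0368 TPM and a highest value of 8.81 TPM in clone 21. In monocytes it ran from 2.69 TPM (clone 23) through a median of 12.1 TPM to 28.5 TPM (clone 9). The difference was 3.14 (SE 0.24, adjusted p = 6.96e-12, limma), with 23 of 24 clones higher as monocytes and clone 21 again the exception. Ly6c1 made up 0.42% (clone 23) to 2.63% (clone 20) of the sum of both genes in monocytes, with a median of 1.32%.

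The sum of both Ly6c genes gave the same picture as Ly6c2 alone. It was 94.0 ± 217 TPM in progenitors and 1163 ± 766 TPM in monocytes (SD, n = 24 each), a difference of 6.08 (SE 0.64, adjusted p = 2.51e-09, limma). In progenitors 13 of 24 libraries were under 10 TPM and 5 were at or above 100 TPM.

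Ly6a, Ly6i and Ly6g were near 0 in progenitors and low to moderate in monocytes. Like Ly6c1, they passed the filter of a mean of at least 1 TPM only through their monocyte values. The direction of their calls was thus set by the filter. Ly6a ran from 0 to 3.15 TPM in progenitors (median 0.179 TPM, 4 libraries at 0). In monocytes it ran from 4.90 TPM (clone 26) through a median of 14.96 TPM to 204 TPM (clone 15). Clone 15 was far above the next clones, clone 8 with 62.7 TPM and clone 13 with 44.8 TPM. The groups did not overlap, as was true of 1.14% of all genes tested. Most of those genes reached a mean of 1 TPM in both states, so that share is not a like comparison for Ly6a. The difference was 3.55 (SE 0.24, adjusted p = 2.92e-13, limma).

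Ly6i showed the same separation at a lower level. It ran from 0 to 1.14 TPM in progenitors (median 0.0270 TPM) and from 1.26 TPM (clone 26) through 4.14 TPM to 24.9 TPM (clone 15) in monocytes. Clone 15 was again highest, and clone 10 was second with 14.8 TPM. The difference was 2.31 (SE 0.16, adjusted p = 3.87e-13, limma).

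Ly6g was listed at 0 in 13 of 24 progenitor libraries, and its highest progenitor value was 0.881 TPM in clone 20. In monocytes it ran from 0.698 TPM (clone 23) through a median of 8.54 TPM to 55.8 TPM (clone 20), with clone 21 second at 36.9 TPM. It was higher in the monocytes of 24 of 24 clones, and 23 monocyte libraries were above all progenitors. The difference was 3.15 (SE 0.27, adjusted p = 4.66e-11, limma).

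Ly6e was the member that was lower in monocytes. It ran from 221 TPM (clone 24) through a median of 488 TPM to 992 TPM (clone 1) in progenitors. In monocytes it ran from 42.9 TPM (clone 21) through a median of 341 TPM to 2381 TPM (clone 15). The groups overlapped over nearly the whole progenitor range. Ly6e was lower in the monocytes of 18 of 24 clones and higher in clones 10, 13, 15, 17, 23 and 24.

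The change in Ly6e was -0.71 (SE 0.22, adjusted p = 0.00519, limma). It passed in clones 1 to 13 alone (-0.79, SE 0.16, adjusted p = 0.000383, limma) and not in clones 15 to 26 alone (-0.62, SE 0.41, adjusted p = 0.227, limma). The difference between the sets did not pass either (0.17, SE 0.44, adjusted p = 0.831, limma).

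Of all 11072 genes tested, 32.4% were called higher in monocytes and 36.5% lower. A call in either direction was thus common. Ly6c1, Ly6a, Ly6g and Ly6i had means under 1 TPM in progenitors and entered the test only through their monocyte values. For these 4 the filter thus set the direction of a call, though not whether it passed. In bulk RNA, fewer cells carrying a transcript and less transcript per cell cannot be told apart. All 14 neutrophil genes and 10 of 14 classical monocyte genes were also called higher in monocytes, while the classical monocyte genes Plac8 (-1.12) and Ccr2 (-0.97) were called lower. Their part in the Ly6 differences was not tested.

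**Figure D1:**
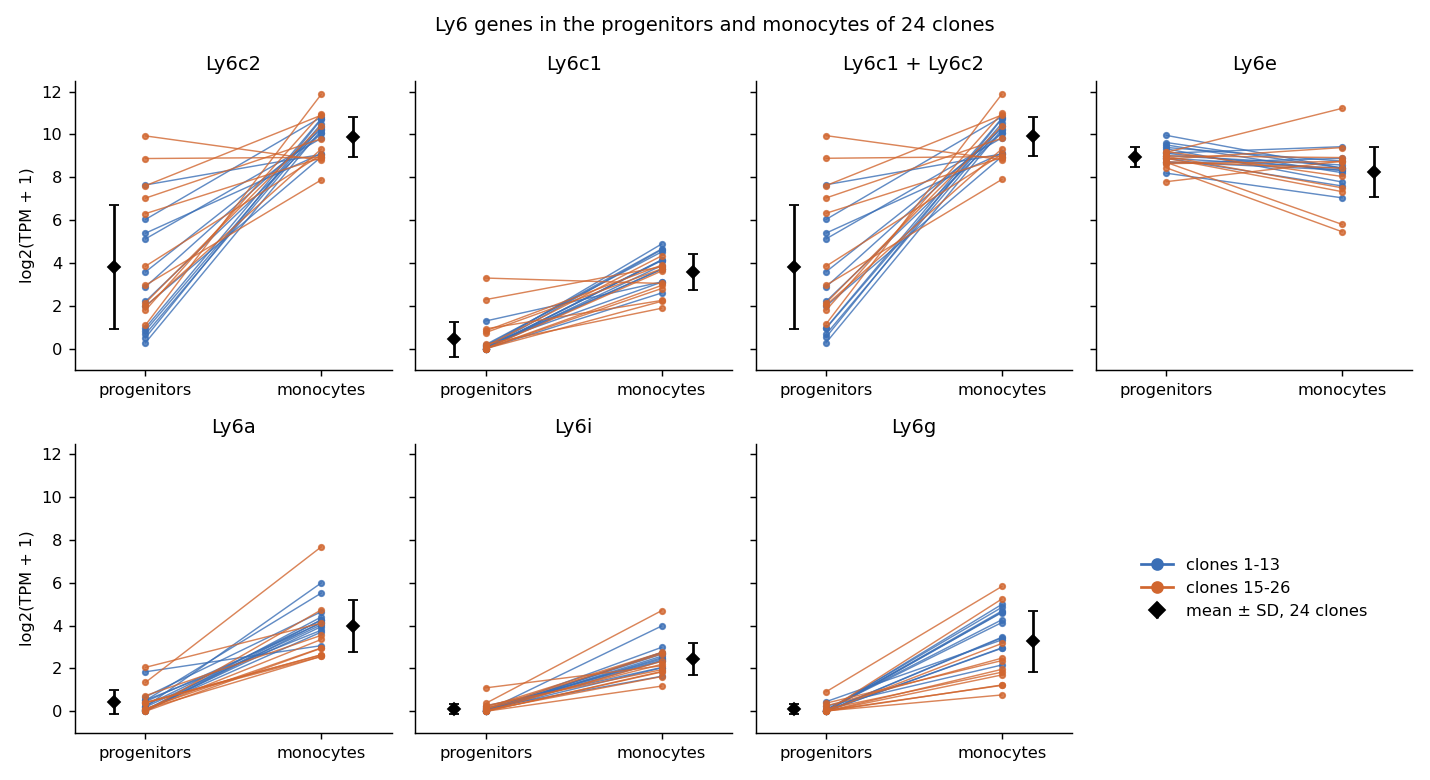
Levels of the 6 genes and of the Ly6c sum as log2(TPM + 1), with a line for each of 24 clones from progenitors to monocytes, coloured by set of clones. Diamonds with bars give the mean ± SD of 24 libraries. Ly6c2 spreads from 0.209 to 975 TPM among progenitors and is lower in the monocytes of clone 21, while Ly6e is lower in the monocytes of 18 clones.

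The order of mean levels differed between the states. In monocytes it was Ly6c2 (1151 ± 762 TPM), Ly6e (413 ± 449 TPM), Ly6a (24.3 ± 40.4 TPM), Ly6g (13.8 ± 13.9 TPM), Ly6c1 (12.7 ± 7.07 TPM) and Ly6i (5.31 ± 4.93 TPM), each SD over 24 libraries. Ly6c2 exceeded Ly6e in 23 clones, all but clone 15, and Ly6e exceeded Ly6a in 24. The ranges of mean ± SD overlapped for each pair of neighbours, but these ranges do not use that both genes come from the same library. Ly6a exceeded Ly6g in 16 clones, and Ly6c1 exceeded Ly6g in 15 clones although its mean was lower. Ly6c1 exceeded Ly6i in 22 clones.

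In progenitors Ly6e led with 517 ± 165 TPM, above Ly6c2 in 22 of 24 clones. The exceptions were clones 20 and 21. Ly6c2 followed with 93.3 ± 216 TPM and exceeded Ly6c1 in 24 clones, although their ranges of mean ± SD overlapped. The remaining members, Ly6c1 (0.715 ± 1.92 TPM), Ly6a (0.482 ± 0.811 TPM), Ly6i (0.105 ± 0.233 TPM) and Ly6g (0.0900 ± 0.196 TPM), had overlapping ranges of mean ± SD.

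Between the members of the cluster, the pseudogenes next to Ly6c2 were expressed at levels above most of the members. I830127L07Rik, annotated as a transcribed unprocessed pseudogene between Ly6c2 and Ly6g, ran from 76.2 to 1375 TPM in monocytes with a median of 557 TPM. In progenitors it ran from 0 to 157 TPM with a median of 0.585 TPM. The difference was 6.85 (SE 0.46, adjusted p = 4.03e-13, limma), and it was higher in the monocytes of 24 of 24 clones. Clone 21, which was lower in Ly6c2 as a monocyte, had 157 TPM of I830127L07Rik as a progenitor and 726 TPM as a monocyte.

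I830127L07Rik was below Ly6c2 in 22 of 24 monocyte libraries and above it in clones 20 and 21. Its level over the 24 monocyte libraries had r = 0.49 with Ly6c2 and r = 0.84 with Ly6c1, given here as a description. Of its 31-base words, 76.9% occur in no other gene of the group, and genes outside the group were not compared. Gm5960, a pseudogene between Ly6c1 and Ly6c2 that was singled out after its values were seen, ran from 7.14 to 273 TPM in monocytes and from 0 to 96.2 TPM in progenitors. It had r = 0.82 with Ly6c2 over the monocyte libraries and shared no 31-base word with it. Ly6f, at the far end of the cluster, stayed at or below 7.18 TPM in monocytes. Its r with Ly6c2 over the monocyte libraries was 0.91, and 0.94 and 0.93 within clones 1 to 13 and clones 15 to 26.

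**Figure D2:**
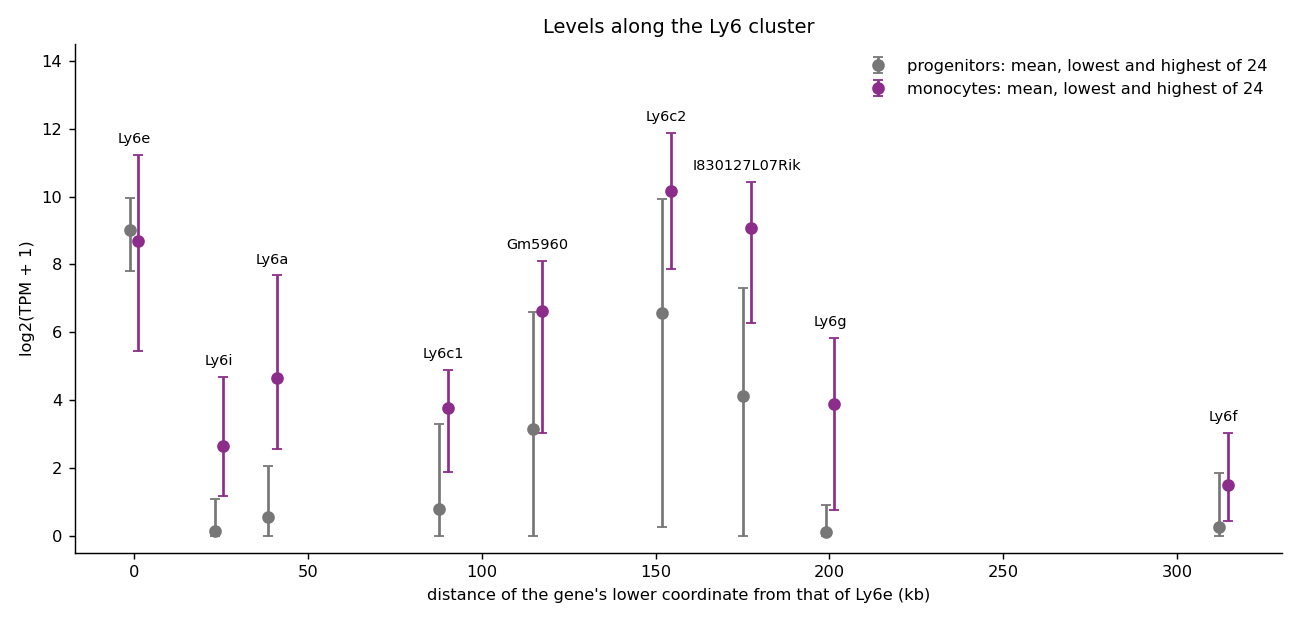
Levels of the 6 members, Ly6f and the pseudogenes Gm5960 and I830127L07Rik along the cluster, as log2(TPM + 1), against distance from the start of Ly6e in kb. Points are log2 of the mean TPM + 1 and bars reach from the lowest to the highest of 24 libraries in each state. Ly6c2 and I830127L07Rik have the highest means in monocytes, and Ly6e is high in both states.

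Among the other genes of the Ly6/uPAR family, 36 of 42 listed genes were in the table, and 28 of these stayed under 1 TPM in every library. Only 4 were tested, of which 3 rose and 1 fell, with a median of 2.22 beside -0.06 over all genes tested. Plaur, the receptor of the urokinase plasminogen activator, averaged 9.13 ± 4.96 TPM in progenitors and 99.6 ± 45.8 TPM in monocytes (SD, n = 24), a rise of 3.27 (SE 0.20, adjusted p = 5.78e-14, limma) seen in 24 of 24 clones. Cd59b, an inhibitor of the complement membrane attack complex, fell from a mean of 13.9 to a mean of 1.56 TPM, a change of -2.66 (SE 0.20, adjusted p = 2.46e-12, limma). I830127L07Rik is described above. The remaining one, Ly6f, averaged 0.205 TPM in progenitors and 1.82 TPM in monocytes. Like 4 of the members, it entered the test only through its monocyte values, so the direction of its call was set by the filter.

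Genes that build and attach the GPI anchor on which these proteins depend were counted too. Of 29 such genes 26 were tested, of which 4 rose, 12 fell and 10 did not pass, with a median of -0.31. Over all genes tested 32.4% were higher, 36.5% were lower and the median was -0.06, so falls were common among all genes as well. The largest fall was in Pigp, a subunit of the enzyme that starts anchor synthesis, by 1.11 on the log2 scale (SE 0.11, adjusted p = 6.30e-10, limma). The largest rise was in Mppe1, which trims the finished anchor, by 1.001 (SE 0.18, adjusted p = 2.51e-05, limma).

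The change from progenitors to monocytes was smaller in clones 15 to 26 than in clones 1 to 13 for Ly6c1 and Ly6g. Ly6c1 changed by 3.79 (SE 0.22) in clones 1 to 13 and by 2.37 (SE 0.34) in clones 15 to 26, a difference of -1.41 (SE 0.41, adjusted p = 0.0282, limma interaction). Ly6g changed by 3.82 (SE 0.24) and 2.37 (SE 0.39), a difference of -1.44 (SE 0.47, adjusted p = 0.0455, limma interaction). Of all genes tested, 11.5% were called in this comparison. Ly6g was near 0 in the progenitors of both sets (medians of 0 and 0.0135 TPM), so its difference mostly repeats that between the monocytes of the sets, given below.

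The Ly6g call was not stable. It was lost without clone as a block (adjusted p = 0.0628, limma) and when leaving out any of 15 of the 24 clones in turn, and the Ly6c1 call was lost without clone 19 or clone 23 (highest adjusted p = 0.0561, limma). Ly6c2 changed by 7.12 (SE 0.69) in clones 1 to 13 and 4.84 (SE 0.93) in clones 15 to 26, and this difference of -2.27 did not pass (SE 1.22, adjusted p = 0.220, limma interaction). The corresponding differences of Ly6a (-0.83, SE 0.45) and Ly6i (-0.40, SE 0.30) did not pass either (adjusted p = 0.227 and adjusted p = 0.403, limma interaction). Without clone 15, whose Ly6a stood apart, the Ly6a difference was -1.15 and passed (adjusted p = 0.0494, limma).

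**Figure D3:**
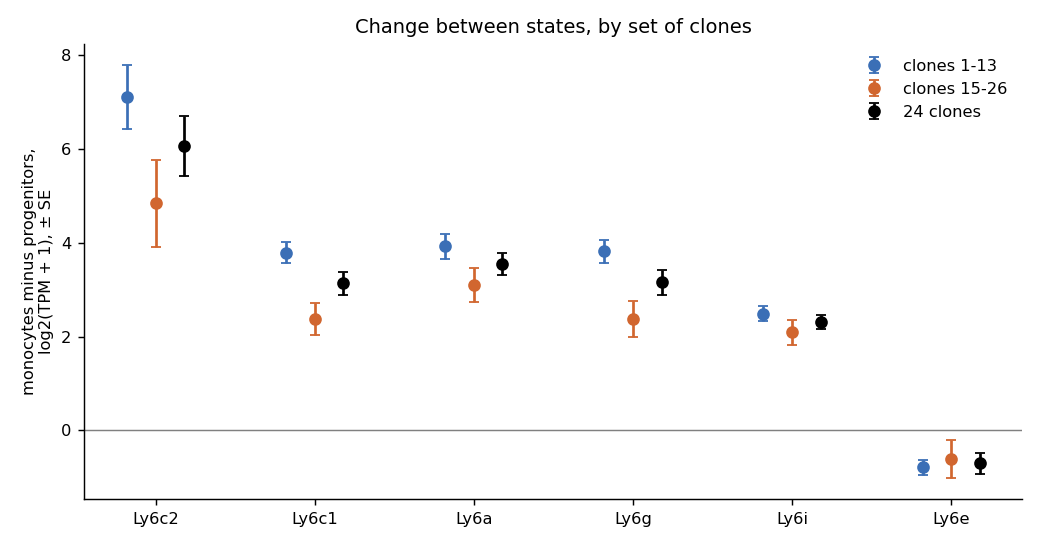
Difference between monocytes and progenitors in log2(TPM + 1) for each gene, in clones 1 to 13, clones 15 to 26 and all 24 clones. Points are estimates from limma and bars are ± 1 SE. Ly6c1 is 3.79 and 2.37 and Ly6g 3.82 and 2.37 in the 2 sets, and Ly6e is below 0 in both.

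Within a state, no member differed between the sets of clones at an adjusted p under 0.05 in limma. In progenitors 39.4% of all genes tested passed. The largest member difference there was 1.94 for Ly6c2 (SE 1.06, adjusted p = 0.147, limma), from a median of 3.60 TPM in clones 1 to 13 and 13.4 TPM in clones 15 to 26. At an unadjusted p under 0.05 in limma, 1 member passed in progenitors, Ly6c1, where at least the same 39.4% of all genes did. In monocytes 7.11% of all genes passed. Ly6g was lower in clones 15 to 26 by a difference of -1.36 (SE 0.50, adjusted p = 0.0972, limma), with medians of 16.7 and 2.89 TPM. Ly6c1 was lower there too, by -0.79 (SE 0.29, adjusted p = 0.0998, limma), with medians of 16.2 and 7.23 TPM. These 2 passed at an unadjusted p under 0.05 in limma, as did at least 7.11% of all genes.

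Whether a clone high as a progenitor was also high as a monocyte could be asked of Ly6c2 and Ly6e, which reached a mean of 1 TPM in both states. Ly6c2 tended the opposite way, with Pearson r = -0.44 and Spearman rho = -0.51 over 24 clones, which did not pass (permutation test, adjusted p = 0.286 and unadjusted p = 0.0321). Within the sets r was -0.48 and -0.37, and without clones 20 and 21 it was -0.31. Ly6e had r = 0.26 (rho = 0.16, permutation test, adjusted p = 0.643). Of the genes tested, 2.09% were called in this comparison.

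Interferon response genes were set beside the members, because several Ly6 genes are induced by interferon. The score was the mean z-score of 25 type I interferon response genes, none of them a member. All 25 were highest in the monocytes of clone 15. The 26 genes of the list, which include Ifi44 that was too low to be scored, summed to 7769 TPM there. The next sums were 1048 TPM in clone 8 and 808 TPM in clone 13, and the median over monocytes was 224 TPM. Clones 15, 8 and 13 were also the 3 highest in Ly6a.

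Over the 24 monocyte libraries Ly6a had r = 0.74 with the score (rho = 0.32, permutation test, adjusted p = 0.0202), and 3.9% of all genes tested were called. Within clones 1 to 13 r was 0.64 and within clones 15 to 26 it was 0.81. Without clone 15 the value over all clones was 0.49 and no longer passed (permutation test, adjusted p = 0.294), and that within clones 15 to 26 was 0.07, so the call rests on that clone. Without clones 15 and 22, the farthest from the median score, r over all clones was 0.48.

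Ly6e had r = 0.58 (rho = 0.35, permutation test, adjusted p = 0.1003), with 0.66 and 0.58 within the sets. Without clone 15 it was 0.31 over all clones (permutation test, adjusted p = 0.670) and 0.003 within clones 15 to 26. Ly6i had r = 0.57 (rho = 0.24, permutation test, adjusted p = 0.142), with -0.03 and 0.81 within the sets. Without clone 15 it was 0.15 over all clones (permutation test, adjusted p = 0.886) and 0.14 within clones 15 to 26. In clone 15, Ly6a, Ly6e and Ly6i were each the highest of the 24 monocyte libraries, at 204, 2381 and 24.9 TPM. Ly6c2 ranked 3 there, Ly6c1 ranked 12 and Ly6g ranked 17. For Ly6c2, Ly6c1 and Ly6g, r with the score over all monocytes was 0.04, -0.06 and 0.05, and none passed (permutation test, adjusted p of at least 0.921). These values pool sets that differed: within clones 1 to 13 and clones 15 to 26, r was -0.51 and 0.23 for Ly6c2, -0.66 and 0.23 for Ly6c1, and 0.34 and -0.04 for Ly6g.

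**Figure D4:**
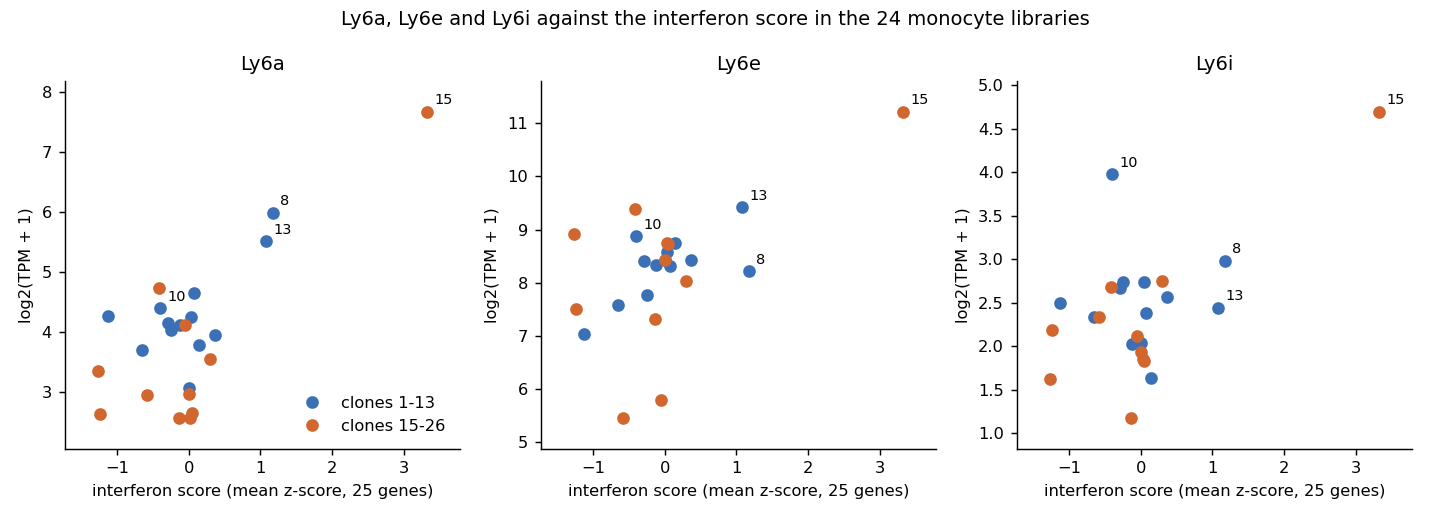
Ly6a, Ly6e and Ly6i as log2(TPM + 1) against the interferon score, the mean z-score of 25 genes, in 24 monocyte libraries coloured by set of clones. Clones 8, 10, 13 and 15 are numbered. Clone 15 is the highest on every axis, with 204 TPM of Ly6a, 2381 TPM of Ly6e and 24.9 TPM of Ly6i.

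In progenitors the interferon genes were low, between 7.12 and 60.1 TPM in sum, and 70% of all genes tested were called against their score. Ly6e had r = 0.52 (rho = 0.39, permutation test, adjusted p = 0.0143), with 0.77 and 0.87 within the sets. Without clones 24 and 16, the farthest from the median score, it was 0.34. Progenitor clone 24 had the lowest Ly6e and the fewest genes at 1 TPM or more (8240). Ly6a had r = 0.43 (rho = 0.45, permutation test, adjusted p = 0.0493), with 0.73 and 0.26 within the sets, at levels of at most 3.15 TPM. That call was lost with each set centred, at a pseudocount of 5, without clone 15 and without clone 21 (permutation tests, adjusted p from 0.0607 to 0.119). No other member passed.

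Neutrophil genes were set beside the members as well, since Ly6g is the usual neutrophil marker. The neutrophil score was the mean z-score of 14 genes, among them Ltf, Camp, S100a8 and Csf3r. Over the 24 progenitor libraries Ly6c2 had r = 0.82 with it (rho = 0.84, permutation test, adjusted p = 0.00184), where 2.11% of all genes tested were called. Within the sets r was 0.75 and 0.85, and without clones 20 and 21 it was 0.79. The neutrophil genes summed to 11022 TPM in progenitor clone 20 and 6301 TPM in clone 21, where the Ly6c sum was 472 and 984 TPM. The median progenitor library had 50.3 TPM of neutrophil genes. The 5 progenitor libraries with the highest Ly6c sum were clones 21, 20, 1, 15 and 16. They ranked 2, 1, 8, 5 and 3 of 24 in summed neutrophil genes.

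Ly6c1 (r = 0.78, rho = 0.56, permutation test, adjusted p = 0.0206) and Ly6g (r = 0.81, rho = 0.69, permutation test, adjusted p = 0.0188) also passed in progenitors, at levels of at most 8.81 and 0.881 TPM. Within the sets r was 0.46 and 0.85 for Ly6c1 and 0.70 and 0.83 for Ly6g. Without clones 20 and 21 it was 0.57 for Ly6c1 and 0.78 for Ly6g. Ly6c1 was at 0 in 11 progenitor libraries and Ly6g in 13. Since Ly6c1 shares sequence with Ly6c2, its value may not be separate from that of Ly6c2, which was not tested. Ly6i (r = 0.76) and Ly6a (r = 0.68) did not (permutation test, adjusted p = 0.0502 and adjusted p = 0.0685). Ly6e had r = 0.12.

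In monocytes Ly6g alone among the members passed against the neutrophil score (r = 0.74, rho = 0.79, permutation test, adjusted p = 0.000775), where 30.1% of all genes were called. Within the sets r was 0.37 and 0.72. Clones 20 and 21 had the most Ly6g, with 55.8 and 36.9 TPM, and the highest sums of the neutrophil list, with 157743 and 189421 TPM. Clones 23 and 22 had 0.698 and 2.89 TPM of Ly6g and the lowest sums of the neutrophil list, with 1983 and 425 TPM. Ly6c2 had r = -0.19 and Ly6e r = -0.38 (permutation test, adjusted p = 0.534 and adjusted p = 0.151). Clones 20 and 21 also had the least Ly6e of the monocytes, with 54.7 and 42.9 TPM.

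**Figure D5:**
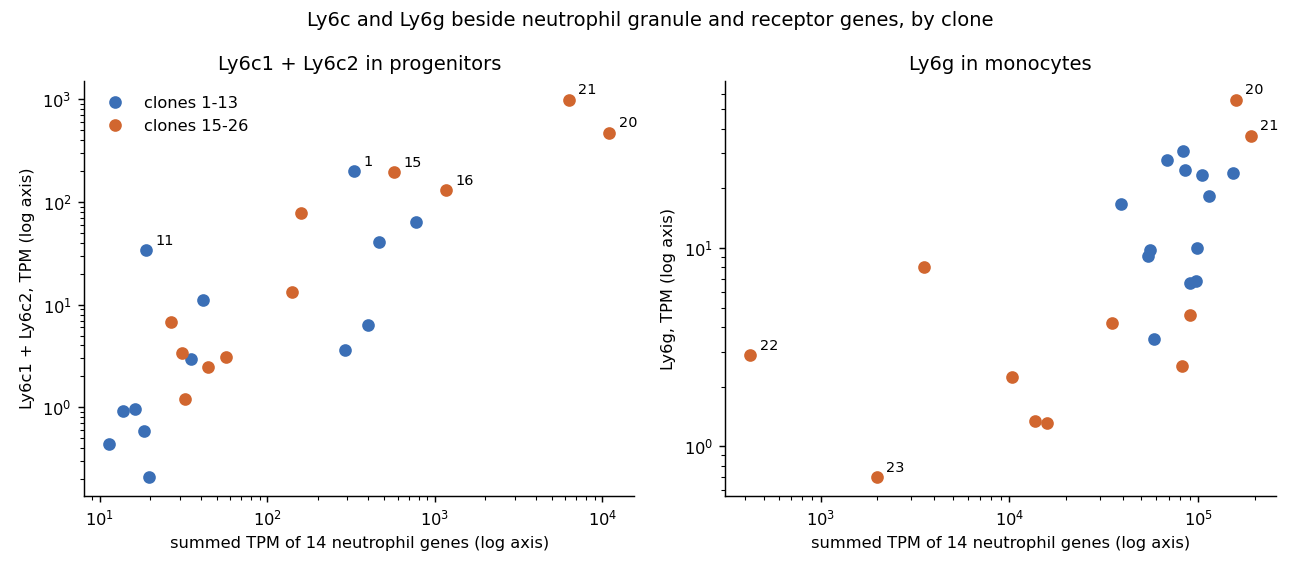
The Ly6c sum in progenitors (left) and Ly6g in monocytes (right), in TPM, against the summed TPM of 14 neutrophil genes, all on log axes, with a point for each of 24 clones coloured by set. Clones 20 and 21 are at the upper right of both panels, with 472 and 984 TPM of Ly6c as progenitors and 55.8 and 36.9 TPM of Ly6g as monocytes.

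The members were also compared with each other over the 24 monocyte libraries. Ly6c1 and Ly6c2 moved together (r = 0.72, permutation test, adjusted p = 0.00723), where 14% of all genes tested were called against Ly6c2, and r was 0.92 and 0.66 within the sets. Since these 2 share sequence, part of this may be set by how reads were divided, which was not tested. Ly6a and Ly6i had r = 0.77 (permutation test, adjusted p = 0.0443), where 0.253% of all genes were called against Ly6a, and r was 0.38 and 0.91 within the sets and 0.59 without clone 15. Against Ly6i itself 0% of genes were called, and 9.17% of the 31-base words of Ly6i occur in Ly6a. Ly6c2 and Ly6e had r = 0.53, which passed against Ly6e (permutation test, adjusted p = 0.0415), where 19.5% of all genes were called. It did not pass against Ly6c2 (permutation test, adjusted p = 0.0512), and r was -0.18 and 0.71 within the sets. No other pair passed. Ly6g and Ly6c2, the markers of neutrophils and classical monocytes, had r = -0.01.

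The genes whose monocyte pattern was most like that of a member were taken from those with a mean of at least 10 TPM and an SD of at least 0.5 in log2(TPM + 1) in monocytes, leaving out Gm, Rik and mt- names. Among these, Plac8, a gene of the classical monocyte list, was the nearest to Ly6c2 (r = 0.86), although its mean was lower in monocytes (543 TPM) than in progenitors (891 TPM). Plac8 was followed, with the pseudogene Gm5960 left out, by Aimp1 (r = 0.80) and Tomm70a (r = 0.79). Ly6f, with a mean of 1.82 TPM too low to be a candidate, had a higher r of 0.91 with Ly6c2. Within the sets Plac8 had r = 0.84 and 0.87, while Aimp1 had 0.16 and 0.94. For Ly6a the nearest were the interferon-induced Ifit2 (r = 0.85), Cxcl10 (r = 0.82) and Ms4a4c (r = 0.80), which were 0.73, 0.66 and 0.65 without clone 15.

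For Ly6c1 the nearest were Cdk2 (r = 0.91), Dars (r = 0.89) and Taf9 (r = 0.88), where 21.4% of all genes were called. For Ly6e they were Psma5, a proteasome subunit (r = 0.87), Ift22 (r = 0.87) and Tifab (r = 0.86), where 19.5% were called. For Ly6g they were Dhrs7 (r = 0.89), Anxa11 (r = 0.83) and Vasp, a regulator of actin filaments (r = 0.82), where 18.7% were called. Ly6i was nearest to Ly6a, Ccl5 (r = 0.76) and Fgl2 (r = 0.73), and these were 0.53 and 0.44 without clone 15. All these values share the same 24 libraries and are descriptions of them.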

How the data were processed

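RNA was sequenced from 24 progenitor and 24 monocyte libraries. The deposited TPM table was made by the authors with Salmon against mm10, per the submitters' processing notes, and the sources used here do not give its version, the annotation or the step from transcripts to genes. Salmon divides reads that fit several transcripts, so near-identical members are uncertain. Libraries were grouped by source label and paired by the clone number in the title, since the design text matches the states by clone. The pairing was checked by correlating the deviations of the 2 libraries of a clone from their group means, which gave over 0.1 in 18 of 24 clones (12 with each set of clones centred). All 48 value columns matched a library, and 26 rows with date-like names were left out.

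Two-sided tests of differences used limma (version 3.58.1, R 4.3.3) on log2 of TPM plus a pseudocount of 1, with trended variances and clone as a fixed block, over 11072 genes with a mean of at least 1 TPM, with Benjamini-Hochberg adjustment over all of them. The Ly6c sum replaced both rows in a second run. Correlations over clones used two-sided tests of 100000 permuted pairings, adjusted the same way, for 31 relations of members. Fits and correlations were tested on simulated data. Sequences came from GENCODE M21 transcripts and RefSeq promoter windows with Python 3.11.15. The named genes were the members, the 3 most alike genes of each member with a mean of at least 5 TPM in monocytes (mean of at least 10 TPM and SD of at least 0.5 for the candidates, Gm, Rik and mt- names left out), family genes of at least 5 TPM and the largest rise and fall among GPI genes. The members, lists and clone sets were chosen with earlier results of these data known. Alternatives changed the pairing, pseudocount, filter, scaling and clones used.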

Additional observations from a re-analysis of the deposited data

Results flagged for a closer look

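The change from progenitors to monocytes differed between the sets of clones for 2 members by limma's interaction test, which called 11.5% of all genes tested. For Ly6c1 the change in clones 15 to 26 minus that in clones 1 to 13 was -1.41 on the log2(TPM + 1) scale (adjusted p = 0.0282, limma), and for Ly6g it was -1.44 (adjusted p = 0.0455, limma). Neither call was stable. That of Ly6g was lost without clone as a block (adjusted p = 0.0628, limma) and when leaving out any of 15 of the 24 clones in turn. That of Ly6c1 was lost without clone 19 or clone 23. Ly6c1 was higher in monocytes in 23 of 24 clones and Ly6g in 24 of 24. In progenitors Ly6g was near 0 in both sets, and its difference between the sets in monocytes did not pass (-1.36, adjusted p = 0.0972, limma). The sets were seen in the expression data and match no label, so what separates them was not tested.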

How the results depend on the processing

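For the change between states, 236 of 237 alternative values of the members and the Ly6c sum kept their direction and call. The exception was Ly6e in clones 15 to 26 alone (-0.62). The direction of the calls of Ly6c1, Ly6a, Ly6g and Ly6i was set by the filter. The filtered values that these genes add to the count therefore do not test that direction. The fit with no filter on low values, over 26666 genes, kept their calls. Ly6i had too low a mean for the filter at 5 TPM. Without the replicate block no call of the change between states was altered. Leaving out each clone in turn gave 5.87 to 6.39 for Ly6c2, 3.07 to 3.29 for Ly6c1, 3.43 to 3.65 for Ly6a, -0.83 to -0.61 for Ly6e, 3.06 to 3.26 for Ly6g, 2.22 to 2.36 for Ly6i and 5.88 to 6.39 for the sum. TPM carries no counts, so what depth limits cannot be given.

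For the difference between the sets of clones, the Ly6g value was -1.44 without the replicate block and -0.84 at a pseudocount of 5, neither of which passed. Leaving out each clone in turn gave -2.87 to -1.68 for Ly6c2 and for the sum, -1.60 to -1.15 for Ly6c1, -1.15 to -0.67 for Ly6a, -0.10 to 0.41 for Ly6e, -1.73 to -1.28 for Ly6g and -0.62 to -0.27 for Ly6i. The sign of Ly6e turned without clone 15. Between the sets within monocytes, Ly6e turned to 0.18 without clones 21, 24 and 26, an alternative chosen after seeing the data, as were all those below without clone 21 and the neutrophil score without clone 15.

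Against the interferon score in monocytes without clone 15, Ly6a fell to 0.49, and Ly6c2 and the sum turned to -0.20. In progenitors Ly6c1 turned to -0.084 with each set centred and to -0.032 without clone 15. Ly6a no longer passed with each set centred (0.42), at a pseudocount of 5 (0.41), without clone 15 (0.36) or without clone 21 (0.40). Calls were gained by Ly6g (0.45) and Ly6i (0.50) at a pseudocount of 0.1, and by Ly6c2 and the sum (both 0.44) without clone 21.

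Against the neutrophil score, Ly6e in monocytes passed with each set centred and without clone 15 (both -0.50). In progenitors Ly6c1 no longer passed at a pseudocount of 5 (0.76), while Ly6a passed without clone 21 (0.80) and Ly6i passed with each set centred (0.74), at a pseudocount of 0.1 (0.70) and without clone 21 (0.87).

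Over all genes, 5053 were called between states in clones 15 to 26 alone beside 7623 in all clones. Between sets, 3653 changes differed without clones 21, 24 and 26 beside 1268, with 722 to 3046 when leaving out each clone. Without clones 21, 24 and 26 the sets differed in 7459 genes in progenitors beside 4362. Correlations between states numbered 54 with sets centred, 507 without mitochondrial, Gm and -ps entries, and 451 without clones 21, 24 and 26, beside 207. Without clone 15, 162 genes were called against the interferon score in monocytes beside 432. The cause of these changes was not tested.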
